A study of Mus musculus with 42 samples.

Results

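H3K4me3 regions called in one treatment only are stretches of the mouse genome where the authors' island lists put trimethylated histone H3 lysine 4 in DMSO-treated cells and not in tributyltin-treated cells, or the reverse. Islands of the 8 H3K4me3 libraries were merged where they overlapped or touched, which gave 41299 autosomal regions. A region was taken when at least 3 of the 4 libraries of one treatment had an island in it and none of the other 4 libraries did. That selection left 347 DMSO-only regions, 0.84% of all merged regions, and 349 TBT-only regions, 0.845%, or 696 in all. Because the regions were selected on the island calls, the H3K4me3 values below describe them and test nothing.

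The cells were bone marrow mesenchymal stromal cells (MSCs) bought as a stock prepared from C57BL/6 mouse long bones, kept undifferentiated and treated for 48 h. H3K4me3 and H3K27me3 chromatin immunoprecipitation was done on cells given 0.1% DMSO, the solvent, or 50 nM tributyltin (TBT), an organotin that activates the retinoid X receptor (RXR) and PPARγ, with 4 libraries per mark and treatment and 1 input per treatment. RNA was sequenced in 6 libraries each of DMSO, TBT, 100 nM of the RXR agonist AGN194204 and 100 nM rosiglitazone (ROSI), a PPARγ agonist. The labels do not tie replicates to separate cultures, so p-values here reflect sample-to-sample spread that could be technical only. Of 13 stromal markers, 12 had a median of at least 1 CPM (counts scaled to a common library total) over the RNA libraries, while the summed mature fat cell markers reached at most 0.424 CPM in DMSO and 1.97 to 3.19 CPM in TBT. The 10 blood markers summed to 300.3 to 321.9 CPM in DMSO and 257 to 305 CPM in TBT, with Adgre1 and Tyrobp, macrophage and myeloid genes, at 0 counts. The 3 chondrocyte markers summed to 88.7 to 118 CPM in DMSO and 64.5 to 86.7 CPM in TBT, without overlap. Their part in the results was not tested, and in bulk RNA a smaller number of such cells and less RNA per cell cannot be told apart.

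H3K4me3 is placed by SET1 and MLL (KMT2) methyltransferase complexes and lies as a strong, narrow peak over the start sites of active genes, above all where the promoter is rich in CpG dinucleotides. H3K27me3 is placed by Polycomb repressive complex PRC2 and covers silent developmental genes, which in stem and stromal cells often carry both marks. RXR acts as the partner of PPARγ, LXR and RAR on DNA, at sites built from the half-site AGGTCA.

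Start sites that lay inside these regions had promoters of very different kinds, and 5 of them are shown because the results below turn on their genes. Each line gives the 250 bases before the start site, 5′ to 3′ on the gene's own strand, from RefSeq on GRCm38.p6, with CpG dinucleotides in capitals.
Angptl7, a secreted angiopoietin-like protein, in a DMSO-only region (chr4:148500463-148500712, minus strand): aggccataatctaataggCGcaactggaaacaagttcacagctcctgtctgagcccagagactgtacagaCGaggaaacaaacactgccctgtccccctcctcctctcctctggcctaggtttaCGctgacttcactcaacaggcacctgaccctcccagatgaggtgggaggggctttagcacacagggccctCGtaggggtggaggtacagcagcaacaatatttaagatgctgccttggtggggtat
Il33, an alarmin cytokine, in a DMSO-only region (chr19:29924863-29925112, plus strand): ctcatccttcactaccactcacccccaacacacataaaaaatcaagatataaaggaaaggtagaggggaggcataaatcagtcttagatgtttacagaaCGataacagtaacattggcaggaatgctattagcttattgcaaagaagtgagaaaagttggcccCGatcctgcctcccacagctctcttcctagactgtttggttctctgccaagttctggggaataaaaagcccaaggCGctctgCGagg
Lipe, hormone-sensitive lipase, in a TBT-only region (chr7:25390113-25390362, minus strand): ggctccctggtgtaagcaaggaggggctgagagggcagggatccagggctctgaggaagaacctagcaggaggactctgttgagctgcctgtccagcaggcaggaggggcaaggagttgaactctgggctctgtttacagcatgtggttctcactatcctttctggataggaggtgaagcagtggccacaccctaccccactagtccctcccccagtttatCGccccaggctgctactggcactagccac
Tdrd7, a Tudor domain protein, in a TBT-only region (chr4:45965085-45965334, plus strand): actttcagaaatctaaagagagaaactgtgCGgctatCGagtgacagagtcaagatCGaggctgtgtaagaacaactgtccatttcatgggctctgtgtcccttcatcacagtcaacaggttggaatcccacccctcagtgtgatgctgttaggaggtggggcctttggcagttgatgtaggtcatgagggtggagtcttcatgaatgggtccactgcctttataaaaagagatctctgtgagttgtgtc
Sox2, a pluripotency and neural transcription factor, in a TBT-only region (chr3:34649745-34649994, plus strand): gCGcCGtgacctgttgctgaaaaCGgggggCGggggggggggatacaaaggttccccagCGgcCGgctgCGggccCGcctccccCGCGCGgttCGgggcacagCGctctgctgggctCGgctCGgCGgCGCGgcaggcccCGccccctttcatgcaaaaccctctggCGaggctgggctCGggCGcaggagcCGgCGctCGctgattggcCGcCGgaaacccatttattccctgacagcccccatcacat
The first 4 promoters held 4, 4, 1 and 3 CpGs, and the Sox2 promoter held 27 CpGs at a GC content of 72%. The letters AGGTCA or their complement TGACCT occurred in the Tdrd7 and Sox2 stretches and not in the other 3.

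Over all 43 start sites inside DMSO-only regions (42 gene symbols), the median CpG number in these 250 bases was 4, and 26 of them (60.5%) had 4 CpGs or fewer. The 77 start sites inside TBT-only regions (67 symbols) had a median of 9 CpGs, and 29.9% had 4 or fewer. Promoters inside regions with islands in all 8 libraries had a median of 17 CpGs, with 9.52% at 4 or fewer, against a median of 6 and 44.0% over all 31396 autosomal promoters in the table. GC content followed the same order, with medians of 50.4% in DMSO-only, 58% in TBT-only and 61.2% in shared regions. The AGGTCA half-site, searched on both strands, was present in 18.6% of the DMSO-only promoters, 11.7% of the TBT-only promoters, 9.99% of the shared ones and 14.1% of all. A pair of half-sites in the same direction with 1, 4 or 5 bases between them was in none of the promoters inside either class, and 11, 5 and 3 of all autosomal promoters held those spacings. These are descriptions of letters in a fixed window, for start sites only. The sequence of the regions that held no start site was not used here.

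H3K4me3 in these regions was weak. Where a library had several islands in a region, its fold is the highest deposited value among them, and its reads are their sum. The deposited fold over input, averaged over the libraries with an island, had a median of 1.83 in DMSO-only regions and 1.86 in TBT-only regions, against 7.86 in the 12333 regions with islands in all 8 libraries. The middle 50% of regions spanned 1.66 to 2.14 in DMSO-only, 1.68 to 2.20 in TBT-only and 5.18 to 10.6 in shared regions. A library with an island held a median of 92.7 ChIP reads in a DMSO-only region and 85.3 in a TBT-only region, and 485 in a shared region. Median width was 4800 bp in both classes and 6600 bp in shared regions. Folds of that size were common in the data: the 20823 merged regions (50.4%) with an island in a single library had a median fold of 1.78.

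**Figure D1:**
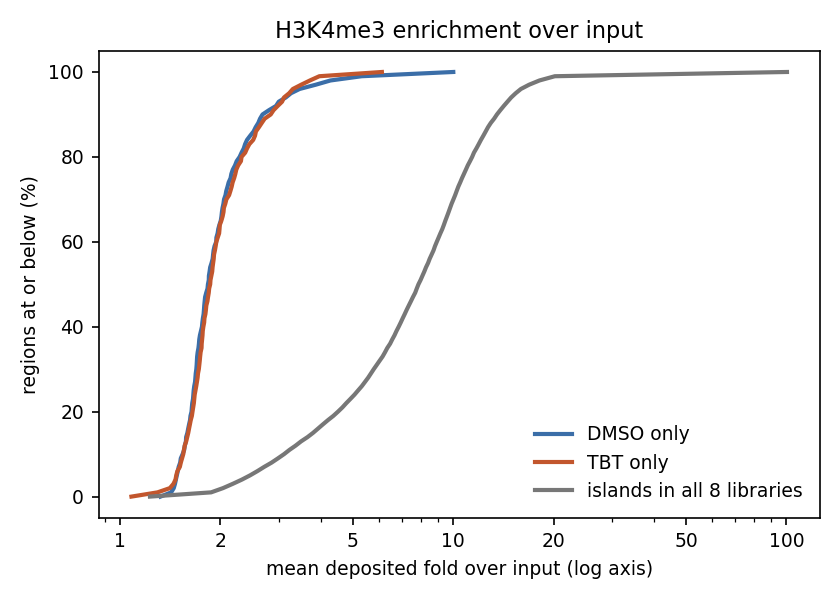
Share of regions (y axis, percent) at or below a mean deposited fold over input (x axis, log scale) for DMSO-only, TBT-only and shared regions. The curves of both selected classes lie on each other, with medians of 1.83 and 1.86, and the curve of regions with islands in all 8 libraries lies to the right, with a median of 7.86.

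At the edge of the selection, 290 DMSO-only regions had islands in 3 DMSO libraries and 57 in all 4. Of the TBT-only regions, 270 had islands in 3 TBT libraries and 79 in all 4. Just outside the selection, 1383 regions had islands in 2 DMSO libraries and no TBT library, and 953 in 2 TBT libraries and no DMSO library. A further 212 regions had islands in 3 DMSO libraries and 1 TBT library, and 202 in 3 TBT libraries and 1 DMSO library. Their folds were like those inside: medians were 1.83 at 3 DMSO and 0 TBT libraries, 1.77 at 2 and 0, and 1.96 at 3 and 1. On the TBT side the medians were 1.85, 1.82 and 1.94.

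**Figure D2:**
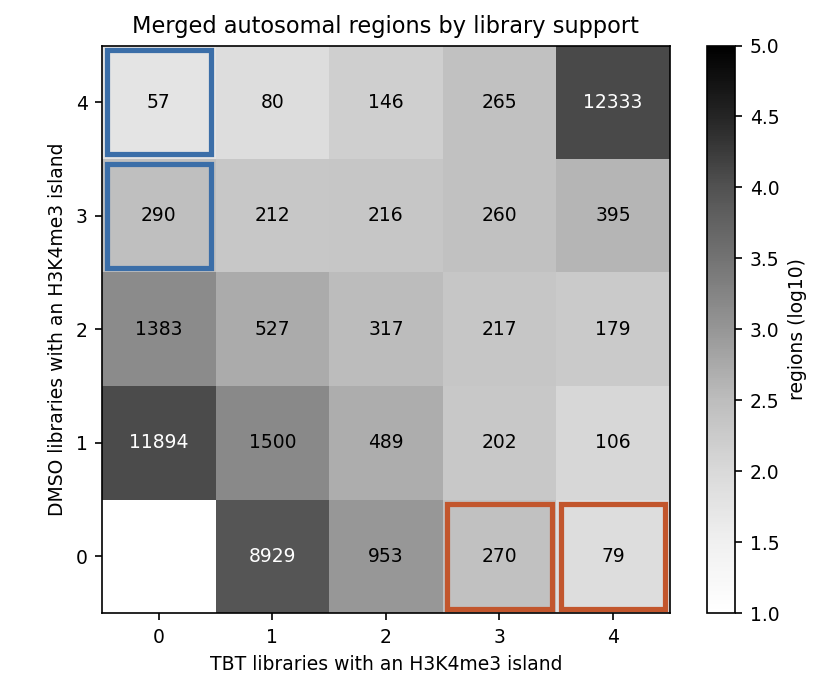
Number of merged autosomal regions by how many of 4 DMSO libraries (y axis) and 4 TBT libraries (x axis) had an H3K4me3 island, shaded by log10 of the number. Blue frames mark the DMSO-only cells (290 and 57 regions), orange frames the TBT-only cells (270 and 79), and the cell at the upper right holds the 12333 regions found in all 8 libraries.

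Each library contributed to most regions of its class. DMSO replicates 1 to 4 had an island in 83.6%, 72.6%, 87.3% and 72.9% of the DMSO-only regions, and TBT replicates 1 to 4 in 83.1%, 73.4%, 76.8% and 89.4% of the TBT-only regions. In both treatments the highest share belonged to the library with the most islands, DMSO replicate 3 (23964) and TBT replicate 4 (21456). The other 6 libraries had 18193 to 19740 autosomal islands, and reads inside islands ran from 5831111 to 10398392 per library. When only islands with a deposited FDR of at most 1e-06 were used, the same rule gave 193 DMSO-only and 184 TBT-only regions, but only 77 of the 347 and 64 of the 349 regions above overlapped one of them.

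Few of these regions were promoters. A start site lay inside 39 of 341 DMSO-only regions (11.4%) and 63 of 341 TBT-only regions (18.5%), against 8976 of 11968 shared regions (75.0%) and 27.1% of all merged regions. These counts leave out chromosome 18, for which no start sites were used, with 6 DMSO-only and 8 TBT-only regions. The median distance to the nearest start site was 24224 bp for DMSO-only and 16923 bp for TBT-only regions. No start site lay within 50000 bp of 32.6% of DMSO-only and 24.3% of TBT-only regions, against 8.21% of shared ones and 27.4% of all merged regions. The median distance over all merged regions was 16026 bp, close to that of the TBT-only class. A protein-coding gene overlapped 165 DMSO-only regions (47.6%) and 206 TBT-only regions (59.0%), against 91.8% of shared and 60.4% of all merged regions.

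Among DMSO-only regions called in all 4 libraries, the largest mean fold was at chr1:32073200-32075399, 76630 bp from the nearest start site. Its folds in DMSO replicates 1 to 4 were 2.35, 3.67, 5.21 and 3.75, from 86, 87, 123 and 68 ChIP reads. All 4 values were above the class median. Next came chr8:24417200-24421399, with folds of 1.78, 4.44, 4.91 and 2.67 and no gene across it, and chr9:66605400-66608799, 12285 bp from the start site of the deubiquitinase gene Usp3, with folds of 4.55, 2.25, 2.09 and 3.08. The others among the leading 8 were at chr17:87470600-87475599 over the start of the uncharacterised gene Gm30938, chr17:4892800-4898399, chr15:91700400-91704799 inside the kinase gene Lrrk2, chr18:62265400-62269399 and chr3:84427800-84434199, with mean folds of 2.44 to 2.84. Only 1 of these 8 lay over a start site.

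Among TBT-only regions called in all 4 libraries, the leader was a promoter. It covered the start site of Lmx1a, a LIM homeobox transcription factor of dopaminergic neurons, at chr1:167688200-167689999, with folds of 4.17, 3.12, 3.85 and 4.72 in TBT replicates 1 to 4 from 57, 43, 62 and 46 ChIP reads. The region at the start of Psd4, an ARF exchange factor gene, at chr2:24364800-24369199, had folds of 5.77, 1.86, 4.14 and 2.93. TBT replicate 2 was lowest at both. The other 6 had mean folds of 3.09 to 3.44. They lay within Agap1 (chr1:89566400-89572199), Prdm9 (chr17:15541400-15547999), Krt86 (chr15:101478600-101481199), Gm30524 (chr6:141033000-141036199) and BC023105 (chr18:60435400-60442199), and 15938 bp from the start of Commd9 (chr2:101902200-101907999).

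The largest folds in the whole set were in regions called in 3 libraries, singled out here after their values were seen. At chr1:39758800-39762799, 37811 bp from the start site of Rfx8, DMSO replicates 1, 3 and 4 had folds of 6.90, 15.9 and 7.19. The ChIP counts were 138, 47 and 96 reads against 12, 2 and 14 input reads. At chr13:107469400-107470599, over the start of the uncharacterised gene AI197445, the same 3 libraries had folds of 5.18, 6.43 and 8.56. The largest TBT-only mean fold, 6.11 at chr17:72274400-72278399 inside the receptor kinase gene Alk, rested on TBT replicate 4, with a fold of 13.9 from 18 ChIP reads and 2 input reads, while replicates 1 and 2 had 2.37 and 2.08. Input counts this small leave such folds imprecise.

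At the other end, 4 TBT-only regions and no DMSO-only region had more than 100 input reads per kb of island. They were chr2:98659600-98667999 with no gene across it (10126 input reads per kb), chr6:103647800-103650599 in Chl1 (2724), chr17:39841600-39850999 over the ribosomal RNA gene copy Rn18s-rs5 (1303) and chr16:11142800-11144399 in Zc3h7a (544). Their mean folds were 1.11, 1.08, 1.18 and 1.24, at the bottom of the class.

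Input depth also moved with where the regions were. Chromosomes 15, 8 and 6 held 11.4, 10.97 and 10.8 selected regions, both classes together, per 100 shared regions, and chromosomes 1 and 16 held 1.97 and 2.32. Per 100 merged regions the spread was narrower, with 2.12, 2.11 and 1.94 on chromosomes 15, 8 and 6, and 0.926 and 1.29 on chromosomes 1 and 16. In shared islands, DMSO input reads per kb were 19.4, 19.3 and 18.8 on chromosomes 15, 8 and 6, and 12.4 and 10.3 on chromosomes 1 and 16. Over the 19 autosomes, selected regions per 100 shared regions and DMSO input per kb had Pearson's r of 0.88 and Spearman's rho of 0.84. This is a description, since all chromosomes share the same libraries and inputs, and the relation was not computed per 100 merged regions. DMSO-only and TBT-only regions per 100 shared regions went together over the same 19 chromosomes, with r of 0.84 and rho of 0.82. Both were divided by the same number of shared regions, so this relation does not show that the classes lie together. The part of input depth in the selection was not tested.

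**Figure D3:**
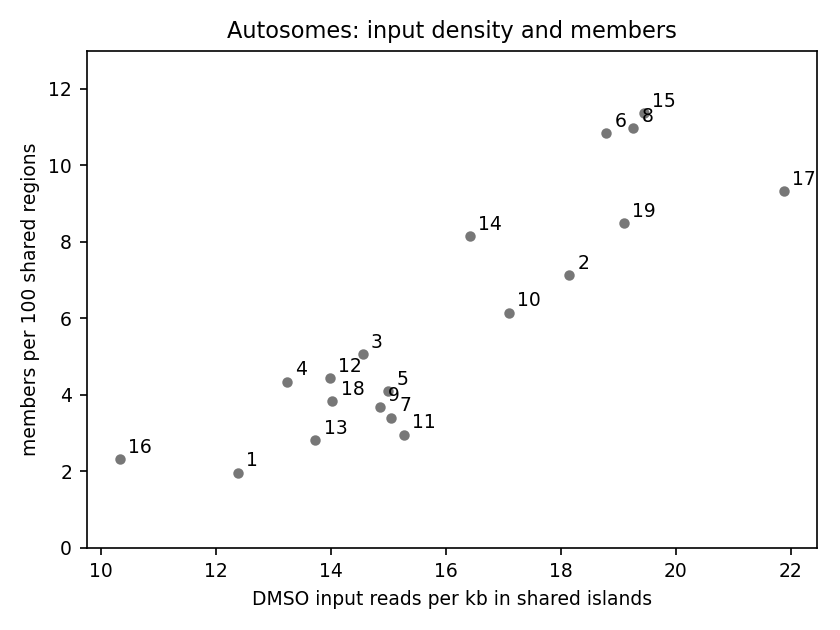
For each autosome (number beside the point), selected regions of both classes per 100 regions found in all 8 libraries (y axis) against DMSO input reads per kb in the shared islands (x axis). Chromosomes 6, 8 and 15 sit at 10.8 to 11.4, and chromosomes 1 and 16 at 1.97 and 2.32, with the lowest input density. Per 100 merged regions, which are not drawn, they held 1.94, 2.11 and 2.12, and 0.926 and 1.29.

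The 1 input of each treatment stood behind all 4 of its libraries. Where islands of several H3K4me3 libraries of a treatment had the same coordinates, their input counts were identical in 1884 of 1884 cases in DMSO and 1699 of 1699 in TBT. A difference between the inputs and a difference between the treatments therefore cannot be told apart from these calls. The input counts behind the 2 marks were not the same: at 217 islands with the same coordinates in both marks in DMSO and 228 in TBT, 0 had equal input counts. The H3K27me3 lists had a median of 3.52 times the input reads of the H3K4me3 lists in DMSO (1.75 to 15.8) and 2.79 times in TBT (1.51 to 12.3). In the H3K4me3 lists, TBT input was denser than DMSO input in shared islands on every autosome. It was 23.2 against 19.4 reads per kb on chromosome 15 and 12.3 against 10.3 on chromosome 16. Median input per kb was 12.6 at DMSO-only regions (DMSO input), 17.1 at TBT-only regions (TBT input) and 16.6 at shared regions (both). These counts were not scaled for input depth. On the selected regions, input counts of both treatments could be compared from the H3K27me3 lists. Where H3K27me3 islands of both treatments lay on a region, input reads per kb in TBT over those in DMSO had a median of 1.04 at 81 DMSO-only regions, 1.01 at 3173 shared regions and 0.978 at 114 TBT-only regions.

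H3K27me3 islands were frequent on TBT-only regions. An H3K27me3 island lay on 17.8%, 18.3%, 26.4% and 27.2% of the 349 TBT-only regions in DMSO replicates 1 to 4, and on 35.8%, 39.5%, 37.0% and 39.5% in TBT replicates 1 to 4. All 4 TBT libraries were above all 4 DMSO libraries, as they also were over shared regions (23.2% to 28.2% against 14.5% to 22.5%) and over all merged regions (21.3% to 24.3% against 14.3% to 21.1%). On the 347 DMSO-only regions the shares were 21.6%, 15%, 27.4% and 19.3% in DMSO and 15.9%, 17%, 17.9% and 22.2% in TBT, and these ranges overlapped. Means were 22.4% ± 5.06 (SD, n = 4) in DMSO and 38.0% ± 1.88 in TBT for TBT-only regions, and 20.8% ± 5.16 and 18.2% ± 2.77 for DMSO-only regions. Over all merged regions the means were 18.1% ± 3.23 and 22.2% ± 1.40. No test is given for these shares, because the labels list 1 input per treatment for both marks, although the deposited input counts of the marks differ.

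**Figure D4:**
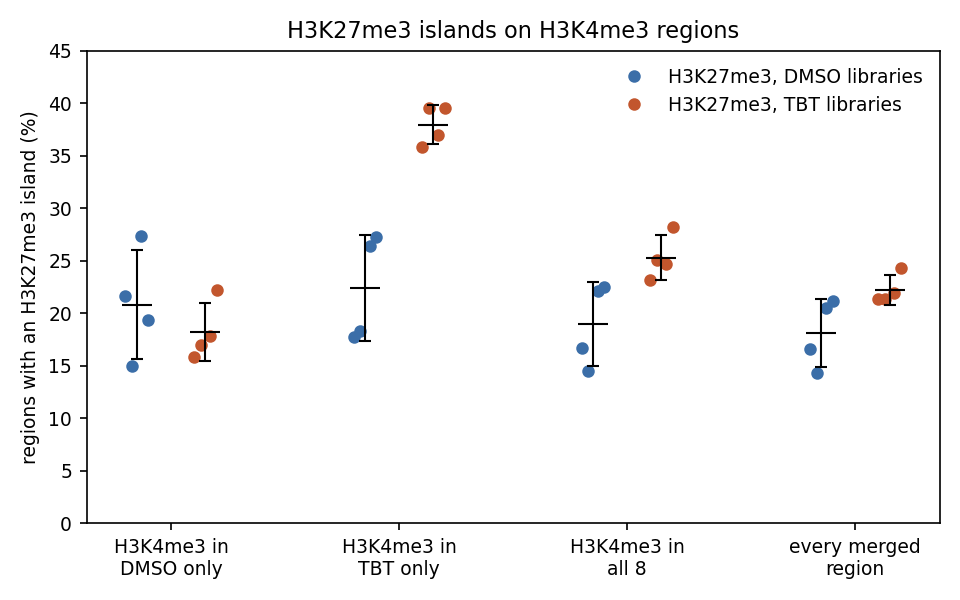
Percent of regions carrying an H3K27me3 island (y axis) in each of 4 DMSO (blue) and 4 TBT (orange) H3K27me3 libraries, for 4 sets of H3K4me3 regions. Bars give mean ± SD. TBT-only regions stand at 35.8% to 39.5% in the TBT libraries, above every other set, and the DMSO and TBT ranges overlap on DMSO-only regions.

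At least 3 TBT libraries had an H3K27me3 island on 109 TBT-only regions (31.2%), and 23 of the class (6.59%) had such islands in at least 3 TBT and no DMSO library. The same one-sided pattern was seen at 1 DMSO-only region, and at 1.77% of all merged regions. In the opposite direction, 9 DMSO-only regions (2.59%) and 1 TBT-only region had H3K27me3 islands in at least 3 DMSO and no TBT library, against 0.717% of all merged regions. One-sided H3K27me3 calls thus lay mostly on the side of the H3K4me3 calls in both classes.

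In the authors' deposited table of differential H3K27me3 peaks, 20 peaks on DMSO-only regions were higher in DMSO and 2 were higher in TBT. On TBT-only regions the authors' deposited table listed 5 peaks higher in DMSO and 22 higher in TBT. Over all autosomal peaks of the authors' deposited table, 2244 were higher in DMSO and 2028 in TBT, a split of 52.5% to 47.5%. On regions shared by all 8 H3K4me3 libraries the authors' deposited table had 126 peaks higher in DMSO and 345 higher in TBT (73.2%), near the 81.5% at TBT-only regions. One TBT-only region with an H3K27me3 peak higher in TBT had its nearest start site at Trim66, a chromatin reader gene. The log2 of DMSO minus TBT of that peak was -5.70 in the authors' deposited table. Other such regions were nearest to Arhgap45 (-5.93) and Tcf7l2, a Wnt effector (-5.20). DMSO-only regions with a peak higher in DMSO in the authors' deposited table included those nearest to Dlk1, an inhibitor of fat cell formation (5.20), and Angptl2 (3.53).

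The authors' deposited table of differential H3K4me3 peaks reached the DMSO-only regions far more than the TBT-only ones. It listed peaks on 49 of the 347 DMSO-only regions, all higher in DMSO, with log2 differences of 2.36 to 5.90 and a median of 4.29. On TBT-only regions the authors' deposited table had 2 peaks, both higher in TBT: chr10:76212400-76217399, nearest to Prmt2, an arginine methyltransferase gene (-2.98), and chr4:12112600-12116199 (-5.02). The authors' deposited table as a whole held 221 autosomal peaks higher in DMSO (90.2%) and 24 higher in TBT, so its balance leaned to DMSO as well. These peaks come from the libraries that chose the regions and are no independent check.

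H3K27me3 read counts could be compared between treatments at the 2859 autosomal H3K27me3 regions with islands in all 8 libraries. For each library, the count is the sum over its own islands in the region, and reads outside them were not counted. The counts thus depend on island extent as well as on read density. Of the 2859 regions, 36 lay on DMSO-only regions and 61 on TBT-only regions, 94 distinct regions in all. No region passed the test, among those 94 or among all tested (0 of 2859, or 0%, at an adjusted p below 0.05 in edgeR's quasi-likelihood test). H3K27me3 regions called in the libraries of a single treatment could not enter this test. At an unadjusted p below 0.05, edgeR had 4 on DMSO-only regions, 2 on TBT-only regions and 186 of all, while DESeq2 called 26 of all. On TBT-only regions DESeq2 called 1, and on DMSO-only regions none.

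That 1 region, chr2:163199000-163269999, runs across a TBT-only region at the start site of Tox2, an HMG-box transcription factor gene. Its H3K27me3 level was 89.9, 94.5, 169 and 144 CPM in DMSO replicates 1 to 4 and 176, 518, 542 and 284 CPM in TBT. The groups did not overlap, but the lowest TBT value was close to the highest DMSO value. The log2 difference was 1.61 ± 0.39 (SE), with an adjusted p of 0.472 in edgeR and 0.0139 in DESeq2. A second H3K27me3 region on the same TBT-only region, chr2:163163600-163198399, went the other way, with means of 172 CPM in DMSO and 123 CPM in TBT (log2 -0.49 ± 0.28, adjusted p 0.775 in edgeR). The authors' deposited table lists it as higher in DMSO, with a log2 difference of 1.0. Of the 4 regions with an unadjusted p below 0.05 on DMSO-only regions, 2 were higher and 2 lower in TBT. The smallest p belonged to one in Plcg2, a phospholipase gene, with 799.6, 845, 1143 and 632 CPM in DMSO and 490, 514, 603 and 595 CPM in TBT (log2 -0.64 ± 0.19, adjusted p 0.601 in edgeR). The DMSO-only region over the start of Retn, which encodes the fat cell hormone resistin, lay on an H3K27me3 region with 190, 231, 119 and 353 CPM in DMSO and 588, 605, 291 and 462 CPM in TBT. Its log2 difference of 1.12 ± 0.35 had an adjusted p of 0.613 in edgeR.

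Most genes with a start site in or within 1000 bp of a region were either not matched in the RNA table or below its expression filter. DMSO-only regions had 45 such genes, of which 25 were matched in the RNA table and 5 passed the expression filter. Of the other 20, 10 had no count in any of the 24 libraries, and the highest level in any library was 5.53 CPM, for Stra6. TBT-only regions had 73 such genes, 54 of them matched and 11 tested. Of the other 43, 14 had no count in any library and the highest level was 4.92 CPM, for Crispld2. In shared regions 8748 genes of 10421 matched passed the filter.

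Several transcription factor genes were among the untested genes at TBT-only regions. They were singled out after the gene names were seen, and their share was not compared with that elsewhere. Besides Lmx1a and Sox2 they included Pax8, a thyroid and kidney factor, Nr2e1, a nuclear receptor of neural stem cells, Nhlh2, Fezf1 and Dmrt3. At Sox2 (chr3:34647600-34652199) the folds in TBT replicates 1 to 4 were 2.17, 1.76, 1.89 and 1.94, and H3K27me3 islands were present in 0 DMSO and 2 TBT libraries. At Nhlh2 (chr3:102010200-102013399) TBT replicates 1, 2 and 4 had folds of 2.59, 3.44 and 4.18, with H3K27me3 islands in 3 DMSO and 4 TBT libraries. At Pax8 (chr2:24472000-24475799) replicates 1, 3 and 4 had folds of 1.41, 1.73 and 1.91, with H3K27me3 in 2 DMSO and 4 TBT libraries. Lmx1a, Nr2e1 and Dmrt3 had H3K27me3 islands in all 8 libraries. DMSO-only regions had Olig2, the oligodendrocyte factor (chr16:91224200-91229799), with folds of 1.48, 1.74 and 2.88 in DMSO replicates 1, 3 and 4 and H3K27me3 in all 8 libraries.

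H3K27me3 islands in at least 3 TBT libraries lay on 34 of the 57 TBT-only regions whose start sites belonged to no tested gene (59.6%) and on 9 of the 37 such DMSO-only regions (24.3%). In shared regions with only untested genes at their start sites the share was 53.4%, and with tested genes 11.3%. The TBT-only share was thus near that of shared regions whose start sites also belonged to no tested gene. Such genes had low counts or were not matched in the RNA table. Other TBT-only start sites with H3K27me3 in all 8 libraries included those of Igf2, the imprinted growth factor gene, Gdf10, a BMP-family ligand gene, Car7, a carbonic anhydrase gene, and Mal. For DMSO-only regions the starts with H3K27me3 in all 8 libraries were those of Olig2, Amer2, a Wnt pathway regulator gene, and Col13a1, a transmembrane collagen gene.

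RNA was compared in a fit over all 24 libraries and 12529 genes. TBT against DMSO called 15% of these genes higher and 13.9% lower at an adjusted p below 0.05 in edgeR. At DMSO-only start sites 0 of 5 tested genes rose and 3 fell, with 0 higher at an unadjusted p below 0.05 in edgeR and 0 in DESeq2. At TBT-only start sites 3 of 11 tested genes rose and 1 fell. These numbers are small. Without DMSO replicate 1 or 3 in the selection no gene at a DMSO-only start was tested, and without replicate 4 only 1 was. With start sites within 5000 bp, 1 of 12 rose and 3 fell at DMSO-only regions, and 5 of 22 rose and 2 fell at TBT-only regions.

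Angptl7 had the largest fall at a DMSO-only start. Its region, chr4:148497000-148500799, had H3K4me3 folds of 3.13, 4.06 and 3.31 in DMSO replicates 1, 3 and 4, from 94, 78 and 101 reads, and no H3K27me3 island. RNA levels were 19 to 24.5 CPM in DMSO (median 21.3, n = 6) and 3.76 to 8.60 CPM in TBT (median 6.97). Levels in the groups did not overlap, with a log2 difference of -1.73 ± 0.16 (SE) and an adjusted p of 2.13e-11 in edgeR. With AGN194204 the level was 5.04 to 10.5 CPM (log2 -1.58 ± 0.15, adjusted p 1.98e-10 in edgeR), and with rosiglitazone 13.3 to 19.5 CPM (-0.36 ± 0.13, adjusted p 0.232). Angptl7 lies inside the gene of the kinase Mtor, whose reads and those of Angptl7 can be told apart only if counting used the strand, and no label or header states that.

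Il33 also fell. Its region at chr19:29923400-29930399 had folds of 1.5, 1.63 and 1.69 in DMSO replicates 1, 3 and 4. RNA was at 33.2 to 40.8 CPM in DMSO (median 36.8) and 12.6 to 23.3 CPM in TBT (median 16.9), without overlap. The log2 difference was -1.05 ± 0.10, with an adjusted p of 1.72e-10 in edgeR. AGN194204 gave 16.7 to 23.5 CPM (-0.86 ± 0.10, adjusted p 1.86e-08 in edgeR), while rosiglitazone at 32.6 to 39.6 CPM overlapped DMSO in most libraries. The third gene, 1700006J14Rik, is a noncoding transcript within the locus of Hmga2, an architectural chromatin protein gene, at chr10:120359000-120367799. It was at 2.57 to 4.90 CPM in DMSO and 1.00 to 3.02 CPM in TBT, which overlapped, with a log2 difference of -0.90 ± 0.28 and an adjusted p of 0.0149 in edgeR. Hmga2 itself, which spans the same region, was at 303 to 320 CPM in DMSO and 209 to 234 CPM in TBT, a log2 difference of -0.48 ± 0.04 (adjusted p 1.57e-13 in edgeR). The tested genes that did not pass at DMSO-only starts were Gstk1 (log2 -0.94 ± 0.46, adjusted p 0.131 in edgeR) and Entpd1 (0.38 ± 0.34, adjusted p 0.44).

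Lipe, which encodes the lipase that releases fatty acids from stored triglyceride, was the list gene of fat cells that rose at a TBT-only start. The region, chr7:25384000-25391599, was called in all 4 TBT libraries, with folds of 1.60, 1.84, 4.01 and 2.15 from 253, 104, 71 and 67 reads, and had no H3K27me3 island. RNA was at 17.3 to 24.9 CPM in DMSO (median 20.4) and 30.3 to 44.8 CPM in TBT (median 36.5). The groups did not overlap, and the log2 difference was 0.85 ± 0.12 (adjusted p 3.69e-07 in edgeR). The RXR agonist gave 23.6 to 42.8 CPM (0.81 ± 0.12, adjusted p 1.27e-06 in edgeR), and rosiglitazone 16.0 to 24.6 CPM (-0.02 ± 0.13).

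Tdrd7, a component of RNA granules, had a region at chr4:45963000-45967599 with folds of 1.90, 1.62 and 1.70 in TBT replicates 1, 2 and 4. Its RNA was at 57.1 to 72.0 CPM in DMSO, 127 to 144 CPM in TBT, 113 to 130 CPM with AGN194204 and 78.0 to 92.9 CPM with rosiglitazone. All 3 treated groups lay above DMSO without overlap. The log2 differences were 1.01 ± 0.05, 0.89 ± 0.05 and 0.36 ± 0.06 (adjusted p 2.09e-18, 1.64e-16 and 4.23e-05 in edgeR). A second TBT-only region, chr4:45946000-45953399, lay inside Ccdc180 (E230008N13Rik in the RNA table), 11936 bp from the start site of Tdrd7. Ccdc180 RNA was at 0.706 to 3.62 CPM in DMSO and 2.70 to 8.71 CPM in TBT (log2 1.55 ± 0.33, adjusted p 0.000368 in edgeR). The regions lie next to each other, as do the genes, and are not independent.

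Ly6c2, a surface antigen gene of a family with close copies, between which reads may be split, was at 2.45 to 4.00 CPM in DMSO and 3.24 to 7.05 CPM in TBT (log2 0.70 ± 0.21, adjusted p 0.0118 in edgeR, and 0.0645 with no filter on low counts). Its region at chr15:75107400-75118199 had folds of 1.32, 1.5, 1.29 and 1.80. Pacsin2, an endocytic adaptor gene, fell by a small amount, from 218 to 237 CPM in DMSO to 197 to 216 CPM in TBT (log2 -0.14 ± 0.03, adjusted p 0.00116 in edgeR). With scaling by the ERCC spike-ins its difference was -0.05 and did not pass. Kank1, Zfp800, Bdh2, Islr, Lingo1, Slc27a3 and D6Ertd527e, the other tested genes at TBT-only starts, had log2 differences of -0.25 to 0.39 with adjusted p of 0.0814 to 0.983 in edgeR.

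**Figure D5:**
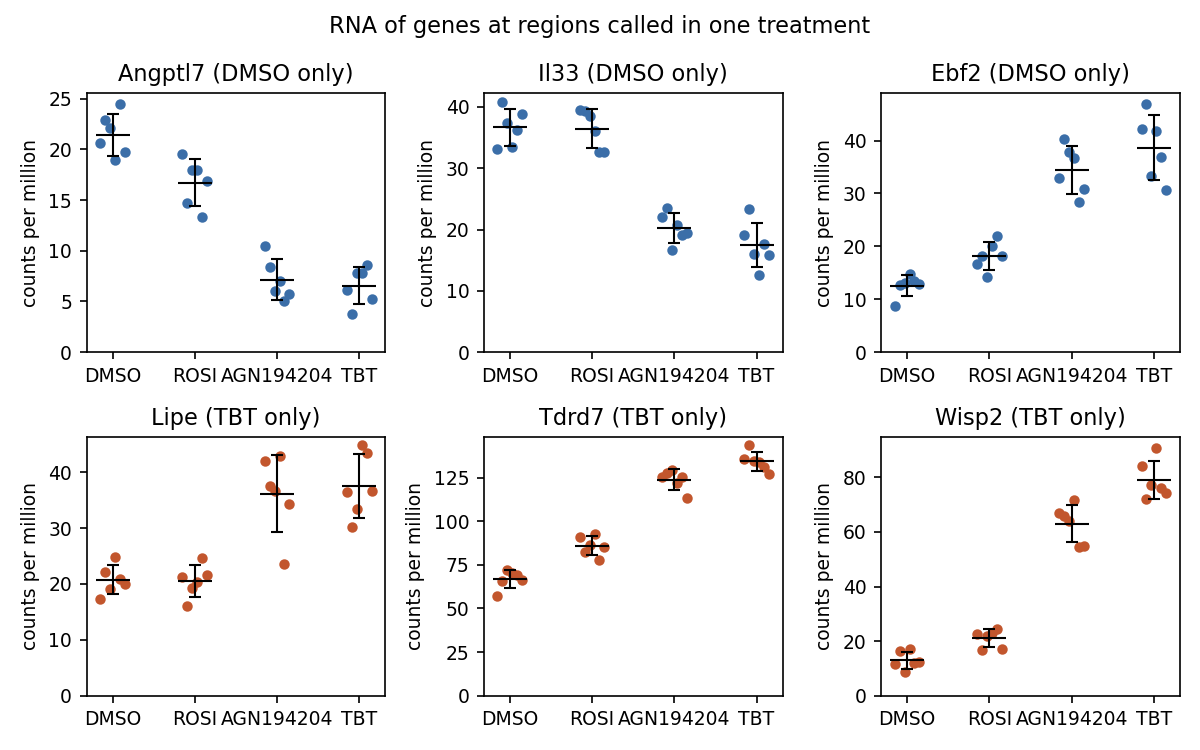
RNA level in CPM (y axis) in each of 6 libraries per treatment for 3 genes at or over DMSO-only regions (blue) and 3 at or over TBT-only regions (orange), with mean ± SD. Angptl7 and Il33 are lower, and Ebf2, Lipe, Tdrd7 and Wisp2 higher, in TBT and AGN194204 than in DMSO, and ROSI stays nearest to DMSO.

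Coding genes without a start site in the promoter table were matched by either gene end, a definition added after seeing the data. The clearest of these was Ccn5, named Wisp2 in the RNA table, a secreted CCN family protein of stromal and fat progenitor cells. A TBT-only region at chr2:163830000-163833599 lay at one of its ends, with folds of 1.55, 1.66 and 2.92 in TBT replicates 1, 3 and 4. Wisp2 RNA was at 8.69 to 17 CPM in DMSO, 72.0 to 90.7 CPM in TBT, 54.6 to 71.7 CPM with AGN194204 and 16.7 to 24.6 CPM with rosiglitazone. The log2 difference was 2.59 ± 0.11 for TBT (adjusted p 1.59e-21 in edgeR). Akap12, a kinase anchoring protein gene at chr10:4352000-4362199, rose from 234 to 257 CPM in DMSO to 378 to 433 CPM in TBT (log2 0.72 ± 0.03, adjusted p 5.69e-19 in edgeR). At DMSO-only regions St3gal2 rose (0.24 ± 0.04, adjusted p 5.12e-05 in edgeR) and Pfdn1 fell (-0.17 ± 0.07, adjusted p 0.0441), and Pfdn1 did not pass in DESeq2 or with ERCC scaling.

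Most regions with a gene lay within its body, so genes that overlapped a region by at least 1 base were counted as well, a definition also added after seeing the data. Of 134 tested genes overlapping TBT-only regions, 49 (36.6%) were higher in TBT and 20 (14.9%) lower, with a median log2 difference of 0.09. Of 115 tested genes overlapping DMSO-only regions, 20 (17.4%) were higher and 18 (15.7%) lower, with a median of -0.01. The background is 15.6% higher and 14.3% lower among 11132 genes overlapping shared regions, with a median of -0.005. With this scaling the shares at DMSO-only regions were close to the background in both directions. At TBT-only regions the share of higher genes was above the background and the share of lower genes close to it, in counts that were given no test. Scaling by the ERCC spike-ins, which moved the median of all genes from -0.006 to 0.08, gave 47 higher and 0 lower at TBT-only regions in edgeR, with 4 lower at an unadjusted p below 0.05 in that fit and 17 lower in DESeq2 with its own scaling. At DMSO-only regions ERCC scaling gave 19 higher and 10 lower of 115. Over all 12529 genes that scaling called 14.4% higher and 2.34% lower, so with it the lower share at DMSO-only regions was above the background, and 0 of 134 at TBT-only regions was near it. When TBT replicates 1 to 4 were left out of the selection in turn, 21 of 59, 22 of 60, 25 of 67 and 16 of 48 tested genes at TBT-only regions were higher.

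With the other agents, which share the DMSO libraries with TBT, 38 of the 134 genes at TBT-only regions were higher and 18 lower under AGN194204, where 12.8% of all genes tested were higher and 11.3% lower. Under rosiglitazone 5 were higher and 2 lower, where 0.615% of all genes were higher and 0.423% lower. For the 115 genes at DMSO-only regions the numbers were 15 higher and 20 lower under AGN194204 and 2 and 2 under rosiglitazone.

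The largest rises in genes overlapping TBT-only regions were in Nrxn2, a neurexin adhesion gene (log2 2.81 ± 0.28, adjusted p 4.59e-10 in edgeR), Wisp2, Trim66 and Ccdc180. Nrxn2 was at 0.424 to 1.88 CPM in DMSO and 5.79 to 9.21 CPM in TBT. Its region at chr19:6445200-6453999 had folds of 1.41, 1.32 and 1.52 in TBT replicates 1 to 3. Trim66 was at 4.91 to 9.18 CPM in DMSO and 14.6 to 27.1 CPM in TBT (log2 1.59 ± 0.17, adjusted p 3.05e-09 in edgeR). The region inside it, chr7:109490200-109494399, was called in all 4 TBT libraries, with folds of 1.46, 2.11, 2.25 and 2.04, and carried H3K27me3 islands in 1 DMSO and 4 TBT libraries. Dhrs9, a retinol dehydrogenase gene of the RAR target list, was at 30.5 to 41.9 CPM in DMSO and 56.2 to 77.2 CPM in TBT (0.91 ± 0.09, adjusted p 1.15e-10 in edgeR), with a region at chr2:69399600-69402599. Aff3, Slc43a1 and BC023105 rose by 0.93, 0.92 and 1.12 on the log2 scale. Among the falls, Eya4 (-0.54), Itgbl1 (-0.52) and Camk2b (-0.46) were the largest, and none of these 3 passed with ERCC scaling.

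Genes overlapping DMSO-only regions moved both ways. Ebf2, an early B-cell factor that marks brown and beige fat precursors, was the largest rise, with a DMSO-only region across part of its gene. It was at 8.65 to 14.7 CPM in DMSO, 30.6 to 47.0 CPM in TBT, 28.4 to 40.3 CPM with AGN194204 and 14.3 to 21.9 CPM with rosiglitazone (log2 1.62 ± 0.12, 1.46 ± 0.12 and 0.53 ± 0.13, with adjusted p of 8.16e-14, 3.75e-12 and 0.0337 in edgeR). The region, chr14:67416200-67421599, had folds of 1.77, 1.60 and 1.75 in DMSO replicates 2 to 4. Its nearest start site was that of Gm30438, and H3K4me3 at the start of Ebf2 is not described here. The region lay on a broad H3K27me3 region, chr14:67283400-67521199, that also held a TBT-only H3K4me3 region at chr14:67474400-67481599. H3K27me3 there was at 542, 1558, 823 and 1303 CPM in DMSO and 1631, 1739, 2023 and 2154 CPM in TBT, with a log2 difference of 0.84 ± 0.28 and an adjusted p of 0.67 in edgeR. Slc38a4, an amino acid transporter gene (0.99 ± 0.18), Fam13c (0.86 ± 0.09) and Il17rd (0.68 ± 0.10) also rose, and Il16 (-0.62 ± 0.12), Fam134b (-0.60 ± 0.09) and Olfml2b (-0.57 ± 0.06) fell, besides Angptl7 and Il33.

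Against 15% of all genes higher in TBT and 13.9% lower in edgeR, 18 of 23 tested PPAR targets, 9 of 12 LXR targets and 4 of 12 RAR targets were higher, while 1 LXR and 1 RAR target were lower. Of the fat cell marker genes 7 of 9 tested were higher, and of the interferon-induced genes 29 of 29. Adipogenic regulators had 9 higher and 2 lower of 20 tested, and osteoblast and chondrocyte regulators 5 higher and 2 lower of 13. All of these lists were chosen with earlier results of these data known, so their shares are no independent support. Few genes of these lists had a region of either class. The 18 fat cell marker genes had Retn at a DMSO-only and Lipe at a TBT-only start. For Retn, with folds of 1.65, 1.47 and 2.01 at chr8:3654200-3657999 in DMSO replicates 1, 3 and 4, RNA gave 0 counts in DMSO and 1 in TBT over 6 libraries each. The 16 RAR targets had Stra6, the retinol transporter gene, 535 bp from a DMSO-only region at chr9:58135200-58141999, with RNA at 0.892 to 1.70 CPM in DMSO, 0 to 2.02 CPM in TBT and 1.47 to 5.53 CPM with AGN194204, below the filter. Among 30 interferon-induced genes only Tnfsf10, a death ligand gene, had a region at its start (chr3:27315600-27319999, TBT-only, folds of 1.67, 1.53, 1.86 and 1.72), with 4 RNA counts in DMSO and 20 in TBT. The 21 adipogenic regulators had Ebf2 and Zfp423 (log2 0.24 ± 0.21, adjusted p 0.439 in edgeR) across DMSO-only regions. Sp7, the osteoblast factor, had a TBT-only region in all 4 TBT libraries at chr15:102353800-102363999, with H3K27me3 in 3 DMSO and 4 TBT libraries. Sp7 RNA reached at most 0.446 CPM in DMSO and 1.00 CPM in TBT. It gave 2 counts in DMSO, 6 in TBT, 7 with AGN194204 and 3 with rosiglitazone, over 6 libraries each. No start site of the 36 PPAR targets or 17 LXR targets lay at a region of either class, and the body of Ucp1, the brown fat uncoupling protein gene, overlapped a DMSO-only one.

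Prdm9, within which a TBT-only region lay, was not on the list of H3K4 methylation genes. That list, too, was chosen with earlier results of these data known. Its 34 genes, which write, read or erase the mark, had no region of either class at them. Of 33 tested, 0 rose in TBT and 9 fell at an adjusted p below 0.05 in edgeR, where 15% of all genes rose and 13.9% fell, with 2 higher at an unadjusted p below 0.05 and 0 higher in DESeq2. The 9 were Ash1l, Ash2l, Bptf, Hcfc1, Ing1, Kdm1a, Kmt2a, Kmt2e and Taf3, with log2 differences of -0.22 to -0.10. With ERCC scaling, where 2.34% of all genes fell, 0 of the 33 fell in edgeR, also at an unadjusted p below 0.05, and the median log2 difference was -0.01 in place of -0.10, while DESeq2 with its own scaling had 8 lower.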

How the data were processed

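Histone mark islands were called by the authors with SICER, named in the submitters' processing notes, and per the file headers and names with a window of 200 bp, gaps of up to 600 bp and an FDR of 0.001, on mm10 coordinates, which are kept as given. Each deposited island list holds ChIP and input read counts, a p-value, a fold over input (a ratio) and an FDR, which is a q-value. Differential peaks come from the authors' deposited tables, with concentrations and differences on a log2 scale and a p-value and FDR; DiffBind is named in the submitters' processing notes. RNA values are read counts per gene as deposited by the authors, who list STAR in the submitters' processing notes. Rows that name no gene (22.9% to 26.2% of all counts in a library) and spike-ins were left out of library sizes, and gene counts per library ran from 3801758 to 5347365. No source used here states whether the authors' counting took strand into account.

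Islands were merged where they overlapped or touched, autosomes only. Start sites came from the RefSeq promoter table (GRCm38.p6, 27025 symbols) and gene bodies from RefSeq genes; 33576 of the 45317 symbols with RNA counts were matched. Genes were tested by the quasi-likelihood method of edgeR 4.0.16 (TMM, filterByExpr, all 24 libraries, Benjamini-Hochberg over all genes tested), with DESeq2 1.42.0, ERCC scaling, no filter, 12 libraries and a replicate block as alternatives. H3K27me3 counts, summed over each library's own islands in regions with islands in all 8 libraries, were tested the same way. The fits were tested on simulated data. R 4.3.3, Python and pandas were used.

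The regions and gene lists were chosen with earlier results of these data known. Named regions were, per class, the 8 called in most libraries with the largest mean fold, those at a gene that passed the RNA test (up to 8 rises and 8 falls), those at a list gene and those on an H3K27me3 region that passed its test (none did). Other regions named were singled out after their values were seen. Lists of PPAR, LXR and RAR targets, adipogenic regulators, fat cell markers, osteoblast and chondrocyte regulators, interferon-induced genes and H3K4 methylation genes were used, with markers of stromal, blood, endothelial, fat, osteoblast, cartilage and muscle cells. Correlations of same-numbered libraries, as deviations from group means, were -0.008 to 0.097 in RNA and -0.045 to 0.057 in H3K27me3, so the numbers were not taken to pair samples.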

Additional observations from a re-analysis of the deposited data

Results flagged for a closer look

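Within groups of 4 or 6 libraries, 90 groups of values were looked at for a library whose gap to its nearest neighbour takes up most of the group's range, which chance alone gives in about 1 of 20 groups. There were 3 such libraries. Ebf2 was at 8.65 CPM in DMSO replicate 1, against a median of 13.2 CPM in the other 5 DMSO libraries. Camk2b was at 4.31 CPM in TBT replicate 1, against a median of 7.33 CPM in the other 5. Dcps, which a TBT-only region overlaps, was at 36.2 CPM in DMSO replicate 5, against a median of 44.8 CPM.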

How the results depend on the processing

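The counts of regions depended on the support asked for. With a deposited FDR of at most 1e-06 there were 193 DMSO-only and 184 TBT-only regions, and with islands in all 4 libraries 57 and 79. Leaving out each library in turn gave 101 to 445 DMSO-only and 116 to 467 TBT-only regions; leaving out a library of the region's own treatment asks for islands in all of the 3 that remain, and lowered the count to 119, 154, 101 and 155 without DMSO replicates 1 to 4 and to 142, 173, 162 and 116 without TBT replicates 1 to 4. Merging across gaps and equal numbers of islands kept both counts within 1.5 times, but not all the same regions. With equal numbers of islands there were 238 DMSO-only and 310 TBT-only regions. Only 199 of the 347 and 242 of the 349 regions above overlapped one of them. With merging across gaps of up to 2000 bp, 301 and 282 did.

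Genes called at DMSO-only starts numbered 3, and 35 (15 higher, 20 lower) with the nearest start within 50000 bp, 5 with gene ends added, and 0 to 6 over the library leave-outs of the selection, with none tested without DMSO replicates 1 or 3. At TBT-only starts the number was 4, and 7 within 5000 bp, 30 (24 higher, 6 lower) with the nearest start within 50000 bp, and 2 to 6 over the leave-outs. The replicate block called the same number of genes at DMSO-only starts (3) and TBT-only starts (4), 40 and 72 genes overlapping the 2 classes against 38 and 69, and no H3K27me3 region (0). It took Zfp934 past the threshold, to an adjusted p of 0.0614 in edgeR. DESeq2 called 1 H3K27me3 region on a selected region, where edgeR called 0. Of 40 named genes tested, none changed direction in any of the 5 other fits. These fits use the same counts, and most of the genes were named for passing the main fit, so this is no independent check. With ERCC scaling 11 no longer passed, with DESeq2 4, with no filter 3, with 12 libraries 3 and with the replicate block 1.

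Depth limits these regions: they held a median of 85.3 to 92.7 ChIP reads, 1 set of input counts stood behind all 4 libraries of a treatment, and an absent island means an enrichment below the authors' threshold, not an absent mark.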
